A study of Rattus norvegicus with 24 samples.

Results

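The genes Cxcl1 (ENSRNOG00000002802), Cxcl2 (ENSRNOG00000002792), Csf3 (ENSRNOG00000008525) and Il6 (ENSRNOG00000010278) were taken by name, with earlier results of these data known, and were followed through every sample. They were 4 of the 12860 genes that passed the low-count filter, out of 32754 genes in the count files, and all 4 passed it. A gene was kept when 3 or more of the 24 libraries exceeded a CPM of 1. Cxcl1 and Csf3 met it through their LPS samples alone, so counts and medians over the 4 genes are given as a description.

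RNA was sequenced from CD11b/c+ cells pulled with antibody-coated magnetic beads from the brains, without cerebellum and olfactory bulbs, of Sprague-Dawley rat pups at P9 (postnatal day 9). From P1, pups and dams spent 8 h a day for 8 days either in room air with 21% O2 (normoxia, Nx) or in intermittent hypoxia (IH), which alternated 10.5% and 21% O2 in 2 min cycles. About 16 h after the last exposure the pups received an i.p. injection of vehicle or of bacterial lipopolysaccharide (LPS), and cells were taken 3 h later. With males and females kept apart this gave 8 groups of 3 samples: Male Nx, Male IH, Female Nx and Female IH with vehicle, and the same 4 with LPS. The LPS dose is given as 0.1 mg/kg in the study's design and as 0.1 mg/mL in the sample labels, and the vehicle as saline in the labels and as HBSS in the study's methods. The samples of a group are described as biological replicates. Litters are not given, so the spread between samples may include shared litters. The beads bind CD11b/c, which other myeloid cells such as neutrophils and monocytes also carry, and markers of these cells could not be looked up by name here, so the makeup of the isolate was not analysed.

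Cxcl1 and Cxcl2 are CXC chemokines that attract neutrophils through the receptor CXCR2. Csf3 encodes G-CSF, which drives neutrophils to form and leave the bone marrow. Il6 encodes interleukin 6, which acts on many cells through a receptor that shares gp130 with related cytokines, and which starts the acute-phase response. In microglia and macrophages, LPS binds TLR4 with CD14 and MD-2, and the signal activates NF-κB, a factor known to bind the promoters of all these genes; C/EBP factors, CREB and AP-1 also act at the Il6 promoter.

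The promoters show where such letters lie. The RefSeq promoter table (rat assembly GRCr8) held 3 of the 4 genes, Cxcl1, Cxcl2 and Il6. Below are the 250 bases before each annotated gene start, 5′ to 3′ along the gene's own strand, with every match to the textbook 10-letter NF-κB consensus, on either strand, in capitals. They are shown because the genes rise together with LPS. All 3 lie on the minus strand, Cxcl1 at chr14:17479322-17479571, Cxcl2 at chr14:17467256-17467505 and Il6 at chr4:5894576-5894825.
Cxcl1: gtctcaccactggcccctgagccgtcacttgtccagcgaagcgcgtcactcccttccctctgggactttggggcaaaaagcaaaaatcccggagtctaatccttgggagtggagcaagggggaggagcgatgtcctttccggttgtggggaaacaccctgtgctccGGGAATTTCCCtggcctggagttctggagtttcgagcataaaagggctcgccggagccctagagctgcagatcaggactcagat
Cxcl2: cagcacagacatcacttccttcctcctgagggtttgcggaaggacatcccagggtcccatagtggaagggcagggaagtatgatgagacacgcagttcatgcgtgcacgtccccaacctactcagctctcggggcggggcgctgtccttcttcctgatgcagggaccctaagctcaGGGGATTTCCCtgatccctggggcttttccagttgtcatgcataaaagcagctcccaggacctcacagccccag
Il6: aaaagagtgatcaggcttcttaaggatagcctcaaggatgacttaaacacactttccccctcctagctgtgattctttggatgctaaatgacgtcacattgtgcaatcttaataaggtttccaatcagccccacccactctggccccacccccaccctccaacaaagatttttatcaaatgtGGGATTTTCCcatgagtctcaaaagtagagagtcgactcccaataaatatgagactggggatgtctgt

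All 3 windows held the motif, against 6.33% of 33469 promoter windows of the same length. In Cxcl1 the capitals run from 84 to 74 bases before the start and in Cxcl2 from 74 to 64 bases, each holding 2 matches that overlap by all but 1 base, and in Il6 a single match runs from 68 to 59 bases. The motifs were chosen after the sequences had been seen, so the count is a description. Il6 also held the CRE letters TGACGTCA, present in 1.59% of windows, at 162 to 155 bases, and the C/EBP letters TTNNGNAA, present in 37.2%, at 152 to 145 bases. In Cxcl2 a C/EBP match lay at 217 to 210 bases. The AP-1 letters TGANTCA, present in 6.34% of windows, were not in these 3. No motif overlapped a different one in these windows, and a match is not evidence of binding. Cxcl1 and Cxcl2 are direct neighbours on chromosome 14, with 0 annotated genes between them. They are related in sequence, and reads that aligned equally well to both were left out of the counts, so their counts are uncertain to that extent.

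**Figure D1:**
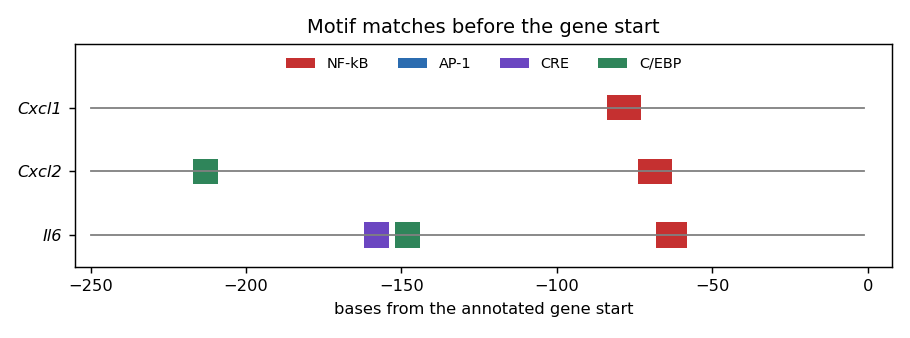
Motif matches in the 250 bases before the annotated start of Cxcl1, Cxcl2 and Il6 (x axis, bases from the start; colours, motifs). The NF-κB matches of all 3 genes lie within 84 bases of the start.

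Total counts per sample ran from 6624453 to 8548714 (median 7532796.5). Reads aligned to more than 1 place were 11.7 to 23.4% of all reads, with the highest share in Male Nx replicate 2, and 12.5 to 15.5% among the LPS samples. Levels are given as raw reads and as CPM, read counts scaled to library size with TMM factors. CPM is not scaled by gene length, so levels are compared between samples and not between genes. Male IH LPS replicate 3 and Male Nx LPS replicate 2 stood apart from the other LPS libraries. They held the lowest values of 7 of the 9 other NF-κB targets described further on. Irf1 was at 202 and 159.5 CPM in them, against 273 to 1396 in the other LPS samples and 127 to 174 with vehicle. Cxcl10 was at 23.1 and 124 CPM, against 440 to 3192 and 3.99 to 14.1. The LPS effects, their interaction with oxygen and the IH and sex differences with LPS are given with and without these libraries. They were picked as the LPS samples lowest in Cxcl1, so leaving them out raises the LPS effects and narrows the spread by construction, and the values without them support no call. In a bulk isolate, fewer cells that express a gene and less RNA per cell cannot be told apart.

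Cxcl1 was close to the detection limit without LPS and reached 12 to 311 reads with it. With vehicle, replicates 1, 2 and 3 held 7, 6 and 2 reads in Male Nx, 5, 0 and 0 in Male IH, 0, 2 and 3 in Female Nx, and 1, 0 and 3 in Female IH. With LPS they held 294, 12 and 103 reads in Male Nx, 79, 311 and 13 in Male IH, 55, 189 and 127 in Female Nx, and 22, 36 and 72 in Female IH. In each oxygen group every LPS sample lay above every vehicle sample (4.5% of genes did so in Nx and 2.61% in IH), and the male LPS groups spread far more widely than the female ones. In males with LPS the mean was 19.3 ± 20.2 CPM after Nx and 18.4 ± 22.0 after IH, and in females 16.5 ± 7.96 after Nx and 5.52 ± 3.45 after IH (SD, n = 3). With vehicle the means were 0.651 ± 0.360, 0.227 ± 0.392, 0.216 ± 0.192 and 0.172 ± 0.191 CPM in the same order. The 4 LPS means could not be ordered beyond their spread, since the 3 values of each group overlapped those of its neighbour.

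Cxcl2 was read in every sample, with vehicle as well as with LPS. With vehicle, replicates 1, 2 and 3 held 101, 42 and 10 reads in Male Nx, 121, 28 and 3 in Male IH, 5, 20 and 24 in Female Nx, and 5, 11 and 24 in Female IH. Both male vehicle groups contained 1 sample with more than 100 reads, and the 6 female vehicle samples stayed at 24 reads or fewer. With LPS there were 474, 156 and 344 reads in Male Nx, 522, 301 and 91 in Male IH, 274, 225 and 220 in Female Nx, and 272, 137 and 304 in Female IH. Male IH replicate 1, a vehicle sample at 16.4 CPM, lay above the lowest LPS sample, Male IH LPS replicate 3 at 11.6 CPM. Group means with LPS ran from 29.8 ± 11.2 CPM in Female IH through 33.2 ± 7.10 in Female Nx and 40.3 ± 27.9 in Male IH to 45.9 ± 22.7 in Male Nx (SD, n = 3). With vehicle the male means were 6.53 ± 5.64 after Nx and 6.74 ± 8.54 after IH, and the female means 2.15 ± 1.25 and 1.76 ± 1.17. No neighbours in either order were apart by more than their spread.

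Csf3 had 0 reads in all 12 vehicle samples and at least 1 read in all 12 LPS samples. With LPS, replicates 1, 2 and 3 held 99, 1 and 34 reads in Male Nx, 6, 67 and 8 in Male IH, 34, 36 and 28 in Female Nx, and 15, 12 and 14 in Female IH. The female groups were tight, with all IH values below all Nx values as for 5.28% of genes, whereas each male group held 1 sample far above its others. In males with LPS the mean was 6.31 ± 6.99 CPM after Nx and 3.70 ± 4.86 after IH, and in females 4.49 ± 0.708 after Nx and 1.71 ± 0.152 after IH (SD, n = 3). A count of 0 over the 6 vehicle samples of an oxygen group allowed up to 3 reads, or 0.0653 CPM in Nx and 0.0657 CPM in IH, for counting error only.

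Il6 was low with vehicle but present in every sample. With vehicle, replicates 1, 2 and 3 held 6, 5 and 11 reads in Male Nx, 13, 20 and 11 in Male IH, 7, 2 and 8 in Female Nx, and 13, 10 and 9 in Female IH. With LPS they held 58, 20 and 40 reads in Male Nx, 49, 39 and 21 in Male IH, 27, 44 and 31 in Female Nx, and 17, 15 and 24 in Female IH. In the vehicle samples all 3 IH values, scaled for depth, were above all 3 Nx values in each sex (2.33% of genes in males and 1.42% in females). In the female LPS samples all 3 IH values were below all 3 Nx values (5.28% of genes). With vehicle the male means were 0.916 ± 0.330 CPM after Nx and 1.86 ± 0.515 after IH, and the female means 0.754 ± 0.412 and 1.45 ± 0.340. LPS means were 5.56 ± 2.69, 4.81 ± 1.90, 4.61 ± 0.886 and 2.35 ± 0.659 CPM in the same order (SD, n = 3). Only Female IH LPS was set apart from its neighbour in that order, Female Nx LPS.

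**Figure D2:**
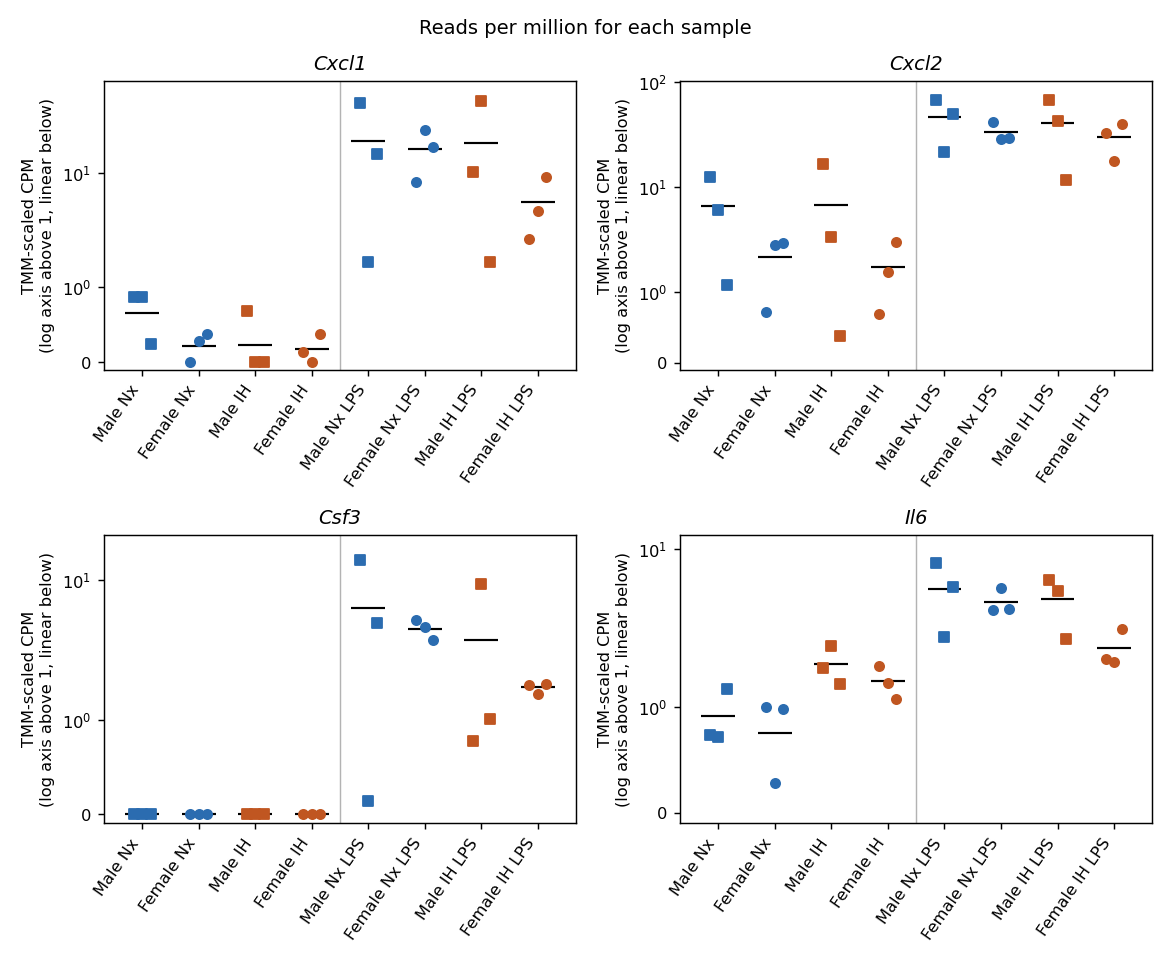
TMM-scaled CPM of each gene in each of the 24 samples, by group (y axis logarithmic above 1 and linear below; squares, males; circles, females; blue, Nx; orange, IH; bars, means of 3). Csf3 is at 0 in all 12 vehicle samples, and the male LPS groups spread more widely than the female ones for Cxcl1 and Csf3.

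The first comparison asked how the genes responded to LPS in pups kept in normoxia. All 4 rose, at a false discovery rate below 0.05 over all genes, where 9.26% of the 12860 genes rose and 6.84% fell (edgeR quasi-likelihood test, Benjamini-Hochberg adjustment, both sexes weighted equally). Cxcl1 rose 45.0-fold, a log2 change of 5.49 ± 0.88 (SE, 95% interval 3.66 to 7.33, edgeR adjusted p = 0.000217), and by 4.88 on the log2 scale without Male Nx LPS replicate 1. Cxcl2 rose 10.3-fold, a log2 change of 3.37 ± 0.63 (2.06 to 4.67, edgeR adjusted p = 0.000909). Csf3, with no vehicle read, rose at least 82.7-fold against the limit of 3 reads over the 6 vehicle samples (edgeR adjusted p = 0.00207). The bound was 56.6-fold without Male Nx LPS replicate 1. It takes the LPS mean as it stands, from values of 0.138 to 13.9 CPM, so it does not allow for the spread between samples. Il6 rose 5.95-fold, a log2 change of 2.57 ± 0.33 (1.89 to 3.26, edgeR adjusted p = 2.19e-05). For each of the 4, all 6 LPS samples lay above all 6 vehicle samples, as was so for 4.5% of genes. Without both LPS libraries that stood apart the log2 changes of Cxcl1, Cxcl2 and Il6 were 5.76, 3.53 and 2.73, and the bound of Csf3 was 98.8-fold. The median log2 change of the 4, with Csf3 at its lower bound, was 4.43, and that of all genes was -0.04.

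After IH the direction was the same, but the Il6 estimate was lower and its call was not secure. All 4 genes rose, where 5.05% of genes rose and 2.12% fell (edgeR quasi-likelihood test with Benjamini-Hochberg adjustment). The log2 change was 5.56 ± 0.97 for Cxcl1 (SE, 95% interval 3.55 to 7.57, 47.3-fold, edgeR adjusted p = 0.000917). It was 7.48 without Male IH replicate 1, which held 5 of the 9 vehicle reads, 6.15 without Female IH replicate 3 and 4.75 without Male IH LPS replicate 2. For Cxcl2 it was 3.32 ± 0.63 (2.00 to 4.64, 9.99-fold, edgeR adjusted p = 0.00214), and 4.23 without Male IH replicate 1. Csf3 rose at least 41.2-fold (edgeR adjusted p = 0.0142), a bound that was 21.1-fold without Male IH LPS replicate 2. The log2 change of Il6 was 1.02 ± 0.31 (0.38 to 1.67, 2.03-fold, edgeR adjusted p = 0.0486). Cxcl1 and Csf3 had no LPS sample within the vehicle range, as was so for 2.61% of genes, while the ranges of Cxcl2 and Il6 overlapped. For Il6 the 6 vehicle samples ran from 1.13 to 2.41 CPM (median 1.60) and the 6 LPS samples from 1.92 to 6.33 CPM (median 2.90). The Il6 call was kept when Male Nx replicate 3, Male Nx LPS replicate 1 or 2, Male IH LPS replicate 3, Female Nx replicate 2 or Female IH LPS replicate 2 was left out, and lost without any 1 of the other 18 libraries, with adjusted p between 0.0157 and 0.142 over all 24 (edgeR), while the log2 change stayed between 0.90 and 1.17. Without both LPS libraries that stood apart the Il6 change was 1.17, that of Cxcl1 5.83 and that of Cxcl2 3.54, and the bound of Csf3 was 46.4-fold. The median log2 change of the 4, with Csf3 at its bound, was 4.34, and that of all genes was -0.01.

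**Figure D3:**
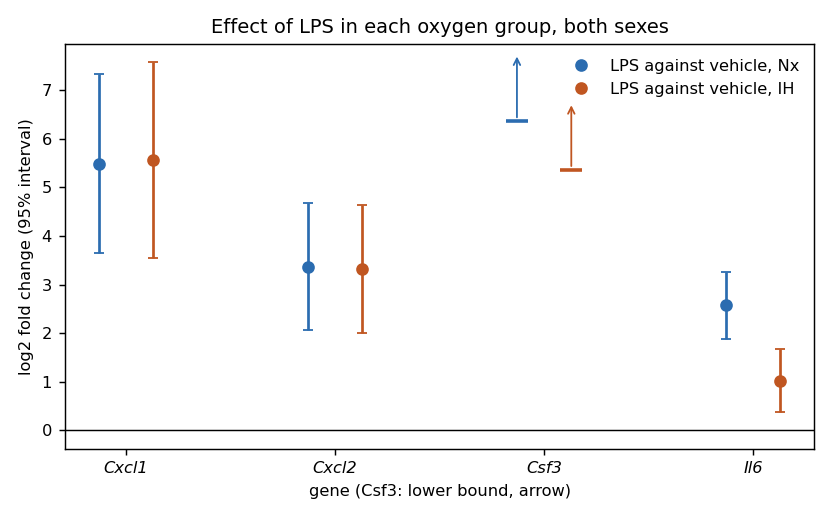
Log2 fold change of LPS against vehicle in Nx (blue) and in IH (orange), both sexes, with 95% intervals; for Csf3 the bars with arrows mark lower bounds. Cxcl1 and Cxcl2 have nearly equal estimates in both oxygen groups, and Il6 is at 2.57 in Nx and 1.02 in IH.

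Whether the LPS response itself differed between the oxygen groups was tested as an interaction over all 24 samples. No gene passed, so 0% of genes were called in either direction, and 182 had an unadjusted p below 0.05 (edgeR quasi-likelihood test, 0 by DESeq2). Such a share is smaller than the 0.05 expected if no gene differed, here and in the IH comparisons below. For Il6 the LPS effect after IH was lower than that in Nx by a log2 difference of -1.55 ± 0.45 (SE, 95% interval -2.49 to -0.61), with an edgeR unadjusted p of 0.00263, the 5th smallest of all genes, and an adjusted p of 1.00. This estimate kept its sign without any 1 library, between -1.72 and -1.36. It combines the vehicle and LPS values given above, where the mean Il6 level was 0.835 ± 0.345 CPM in Nx and 1.66 ± 0.449 in IH with vehicle, and 5.08 ± 1.87 in Nx and 3.58 ± 1.85 in IH with LPS (SD, n = 6). For Cxcl1 the difference was 0.07 (95% interval -1.98 to 2.13) and for Cxcl2 -0.05 (-1.89 to 1.80), intervals that still allow a change of several fold either way. Without both LPS libraries that stood apart the differences were -1.56 for Il6, 0.07 for Cxcl1 and 0.0059 for Cxcl2. Single libraries moved the Cxcl1 difference from -0.74 without Male IH LPS replicate 2 to 1.99 without Male IH replicate 1, and that of Cxcl2 from -0.49 without Male Nx replicate 1 to 0.87 without Male IH replicate 1. No size could be given for Csf3, with no vehicle reads on either side.

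Without LPS, the effect of IH was asked of the 12 vehicle samples. No gene passed (0%, 136 with an unadjusted p below 0.05, edgeR quasi-likelihood test, 0 by DESeq2). For Il6 the ratio of IH to Nx was 1.93, a log2 change of 0.95 ± 0.34 (SE, 95% interval 0.22 to 1.68, edgeR unadjusted p = 0.0147, adjusted p = 1). Its 6 Nx samples ran from 0.279 to 1.30 CPM (median 0.860) and its 6 IH samples from 1.13 to 2.41 CPM (median 1.60), so the pooled ranges overlapped, and over all genes 0% lay wholly higher and 0.00778% wholly lower after IH. Within each sex they did not. These levels rest on 2 to 20 reads a sample. Cxcl1 differed by -0.90 (95% interval -2.85 to 1.04), from 0 to 7 reads a sample. That difference was -2.82 without Male IH replicate 1, -1.49 without Female IH replicate 3 and -0.60 without Female Nx replicate 3. Cxcl2 differed by -0.13 (-1.74 to 1.49). The Cxcl2 estimate changed sign with single libraries, from -1.04 without Male IH replicate 1 to 0.31 without Male Nx replicate 1, and without both it was -0.61. The Cxcl1 difference without both was -2.68 (edgeR unadjusted p = 0.0488, adjusted p = 1).

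With LPS, the question was whether IH altered the induced level, and all 4 estimates were below 0 without passing the test. No gene passed (0%, 223 with an unadjusted p below 0.05, edgeR quasi-likelihood test, 0 by DESeq2). The log2 change was -0.81 ± 0.73 for Cxcl1 (SE, 95% interval -2.40 to 0.78), -0.17 ± 0.38 for Cxcl2 (-0.98 to 0.65), -1.06 ± 0.73 for Csf3 (-2.65 to 0.53) and -0.58 ± 0.30 for Il6 (-1.24 to 0.07). The edgeR unadjusted p was 0.288, 0.664, 0.171 and 0.0773 in the same order, and each adjusted p was 1.00. Single male libraries moved the sizes, with Cxcl1 at -0.19 without Male Nx LPS replicate 1 and -1.65 without Male IH LPS replicate 2, and Csf3 at -0.39 and -2.09. Without both LPS libraries that stood apart the changes were -0.81, -0.12, -1.12 and -0.60 in the order above, and each edgeR adjusted p was 1.00. Over both sexes Il6 in the 6 Nx LPS samples ran from 2.77 to 8.15 CPM (median 4.88), against 1.92 to 6.33 CPM (median 2.90) in the 6 IH LPS samples. The ranges overlapped for all 4 genes, and over all genes 0.0156% lay wholly higher and 0.0233% wholly lower after IH. The median of the 4 estimates was -0.70, and that of all genes was 0.01. Cxcl1, Csf3 and Il6 stand on the study's list of NF-κB targets lower after IH in LPS females. The females among these samples gave that list, so the sign of these genes and the median are not independent evidence.

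The effect of IH was also taken for each sex from the same fit of the 12 LPS samples, so the female intervals share 1 estimate of spread with the males. Cxcl1, Csf3 and Il6 are entries of the study's list of NF-κB targets lower after IH in LPS females. It was drawn from these same samples, so their direction there is not independent evidence. In females the log2 change with IH was -1.56 for Cxcl1 (95% interval -3.87 to 0.75), -0.13 for Cxcl2 (-1.29 to 1.03), -1.35 for Csf3 (-3.67 to 0.96) and -0.94 for Il6 (-1.89 to 0.01). The Cxcl1 change was -2.17 without Female IH LPS replicate 3. No gene passed in females (0%, 183 with an unadjusted p below 0.05 by the edgeR quasi-likelihood test, 0 by DESeq2). The edgeR exact test of females alone gave unadjusted p of 0.00416 for Cxcl1, 0.000248 for Csf3 and 0.0134 for Il6, and adjusted p of 1, 0.516 and 1. The same test gave an unadjusted p of 0.692 for Cxcl2 in females, and in males 0.961, 0.762, 0.559 and 0.722 for Cxcl1, Cxcl2, Csf3 and Il6. In males the changes were -0.07 for Cxcl1 (-2.26 to 2.13), -0.20 for Cxcl2 (-1.35 to 0.95), -0.77 for Csf3 (-2.95 to 1.41) and -0.22 for Il6 (-1.13 to 0.69), and all 4 overlapped, where 1.99% of genes lay wholly higher and 1.75% wholly lower after IH (0% of genes passed, 164 with an unadjusted p below 0.05 by edgeR, 0 by DESeq2). In males single libraries set the sign: Cxcl1 was at -1.74 without Male IH LPS replicate 2 and at 1.17 without Male Nx LPS replicate 1.

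The difference between the sexes in the IH effect was tested directly and passed for no gene (0%, 140 with an unadjusted p below 0.05, edgeR quasi-likelihood test, 0 by DESeq2). Female minus male, it was -1.49 for Cxcl1 (95% interval -4.66 to 1.68), 0.07 for Cxcl2 (-1.56 to 1.71), -0.58 for Csf3 (-3.74 to 2.57) and -0.72 for Il6 (-2.03 to 0.59). Without Male IH LPS replicate 2 it was 0.18 for Cxcl1 and 1.47 for Csf3, and without Male Nx LPS replicate 1 it was -2.73 and -1.93. With LPS and both oxygen groups weighted equally, females were lower than males by a log2 difference of -0.997 for Cxcl1, -0.46 for Cxcl2, -0.81 for Csf3 and -0.65 for Il6. None of the 4 was among the 6 genes that passed, 0.0467% of all (edgeR quasi-likelihood test), nor among the 68 that passed by DESeq2. Il6 had the smallest edgeR unadjusted p of the 4, 0.0512, with an adjusted p of 0.530. Single male libraries moved these sizes, with Cxcl1 at -0.16 and Csf3 at 0.22 without Male IH LPS replicate 2, and Cxcl2 at -0.17 without Male IH LPS replicate 1. Without both LPS libraries that stood apart the differences were -1.54, -0.85, -1.32 and -0.96 in the order above, with edgeR unadjusted p of 0.0092, 0.00348, 0.0285 and 0.00161 and adjusted p of 0.460, 0.337, 0.663 and 0.280. Both of these libraries are male and low in the 4 genes, so leaving them out raises the male level by construction.

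**Figure D4:**
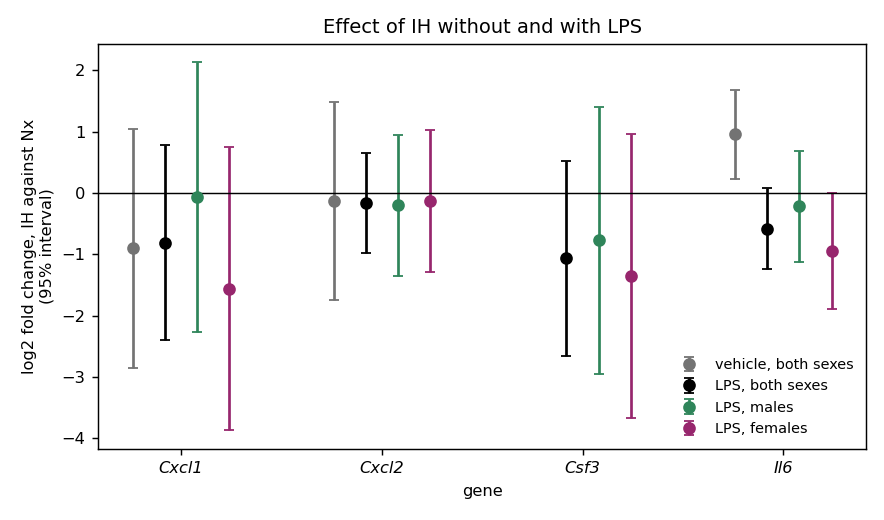
Log2 fold change of IH against Nx with 95% intervals, in vehicle samples (grey) and in LPS samples of both sexes (black), males (green) and females (magenta). Most intervals include 0; the exception is Il6 with vehicle, at 0.95 (0.22 to 1.68).

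The other 9 NF-κB target genes that could be named were entries of the study's list of targets lower after IH in LPS females. That list was drawn from these same samples, so the direction of these genes is not independent evidence. They include Ptgs2, which makes prostaglandins, Sele, an adhesion molecule of activated endothelium, Il1a, an early cytokine, and Irf1, a transcription factor of the interferon response. In Nx, all 9 of 9 rose with LPS (median log2 change 4.43 against -0.04 over all genes, from 1.73 for Cd83 to 8.42 for Cxcl10), where 9.26% of genes rose. Sele, Cxcl9 and Ptgs2 met the low-count filter through their LPS samples alone, so counts and medians over the 9 are a description. After IH, 8 of 9 rose (median 3.55 against -0.01), where 5.05% of genes rose, and Il1a did not pass, at 1.35 (edgeR adjusted p = 0.0791). Between IH LPS and Nx LPS, 0 of 9 passed and all 9 estimates were below 0 (median -0.95 against 0.01 over all genes, from -1.28 for Cxcl10 to -0.54 for Cd83). Where a vehicle group of Sele or Cxcl9 held no read, the change was taken from mean CPM against at least the 3-read limit. In the interaction 0 of the 7 targets with a size passed. Their estimates ran from -1.91 to -0.62, beside -1.55 for Il6, 0.07 for Cxcl1 and -0.05 for Cxcl2. Single libraries moved those of Cxcl1 and Cxcl2 as given above. Whether members and targets differ was not tested.

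The last question was whether the 4 genes varied together among the 12 LPS samples. Of the 6 pairs, 5 passed a permutation test of Pearson's r on log2 CPM (100000 resamples, two-sided, Benjamini-Hochberg adjustment over the 6 pairs). The closest was Cxcl1 with Csf3, r = 0.844 (permutation p = 0.00057, adjusted p = 0.00342, Spearman's rho 0.755, p = 0.00607). Cxcl1 with Il6 gave r = 0.822 (permutation p = 0.00133, adjusted p = 0.00399, rho 0.783, p = 0.00369). Cxcl2 with Il6 gave r = 0.747 (permutation p = 0.00449, adjusted p = 0.00898, rho 0.783, p = 0.00349). These 3 pairs kept their call without any 1 LPS library. The neighbouring chemokines Cxcl1 and Cxcl2 gave r = 0.677 (permutation p = 0.0156, adjusted p = 0.0234, rho 0.601, p = 0.0422). Csf3 with Il6 gave r = 0.610 (permutation p = 0.0350, adjusted p = 0.0420, rho 0.524, p = 0.0818), and Cxcl2 with Csf3 r = 0.496 (permutation p = 0.103, adjusted p = 0.103, rho 0.497, p = 0.104). By rho only the first 3 pairs passed, with a permutation adjusted p of 0.0633 for Cxcl1 with Cxcl2 and 0.0982 for Csf3 with Il6.

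Some of these relations rested on few samples. Without the 2 samples farthest from the median of the first gene, r was 0.765 for Cxcl1 with Csf3, 0.841 for Cxcl1 with Il6, 0.688 for Cxcl2 with Il6, 0.433 for Cxcl1 with Cxcl2, 0.455 for Csf3 with Il6 and 0.433 for Cxcl2 with Csf3. Only Cxcl1 with Csf3 and with Il6 then passed (permutation adjusted p = 0.0311 and 0.0147), so the calls of Cxcl1 with Cxcl2 and of Csf3 with Il6 rest on those samples. Cxcl2 with Il6 kept a similar r (permutation p = 0.0297, adjusted p = 0.0594), and without both LPS libraries that stood apart it gave 0.760. Cxcl1 with Cxcl2 also lost its call without Male Nx LPS replicate 1 (r = 0.61) or Male IH LPS replicate 3 (r = 0.56). Csf3 with Il6 lost its call without any 1 of 9 libraries, with r then between 0.48 and 0.62. It also lost its call with a prior count of 0.5 (r = 0.58, permutation adjusted p = 0.0543). Cxcl2 with Csf3 gained one without Male IH LPS replicate 1 (r = 0.74), a sample with rank 1 of 12 for Cxcl2 and 11 for Csf3. Within the 6 Nx LPS samples r was 0.931 for Cxcl1 with Csf3, 0.917 for Cxcl1 with Il6, 0.832 for Cxcl2 with Csf3 and 0.886 for Csf3 with Il6 (exact permutation test, adjusted p = 0.0396 for each of the 4). By rank none of these passed, with rho of 0.486, 0.829, 0.886 and 0.657 (exact permutation test, adjusted p = 0.356, 0.175, 0.175 and 0.263). Male Nx LPS replicate 2, which stood apart, held 1 Csf3 read. Within the 6 IH LPS samples these pairs gave r of 0.735, 0.739, 0.190 and 0.253 (exact permutation test, adjusted p = 0.223, 0.223, 0.707 and 0.707). Cxcl2 with Il6 passed in neither, at 0.832 within Nx LPS and 0.712 within IH LPS (exact permutation test, adjusted p = 0.0583 and 0.223). The differences between the oxygen groups were not tested. With each of the 4 LPS groups centred on its mean, r was 0.835, 0.892 and 0.862 for Cxcl1 with Csf3, Cxcl1 with Il6 and Cxcl2 with Il6.

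**Figure D5:**
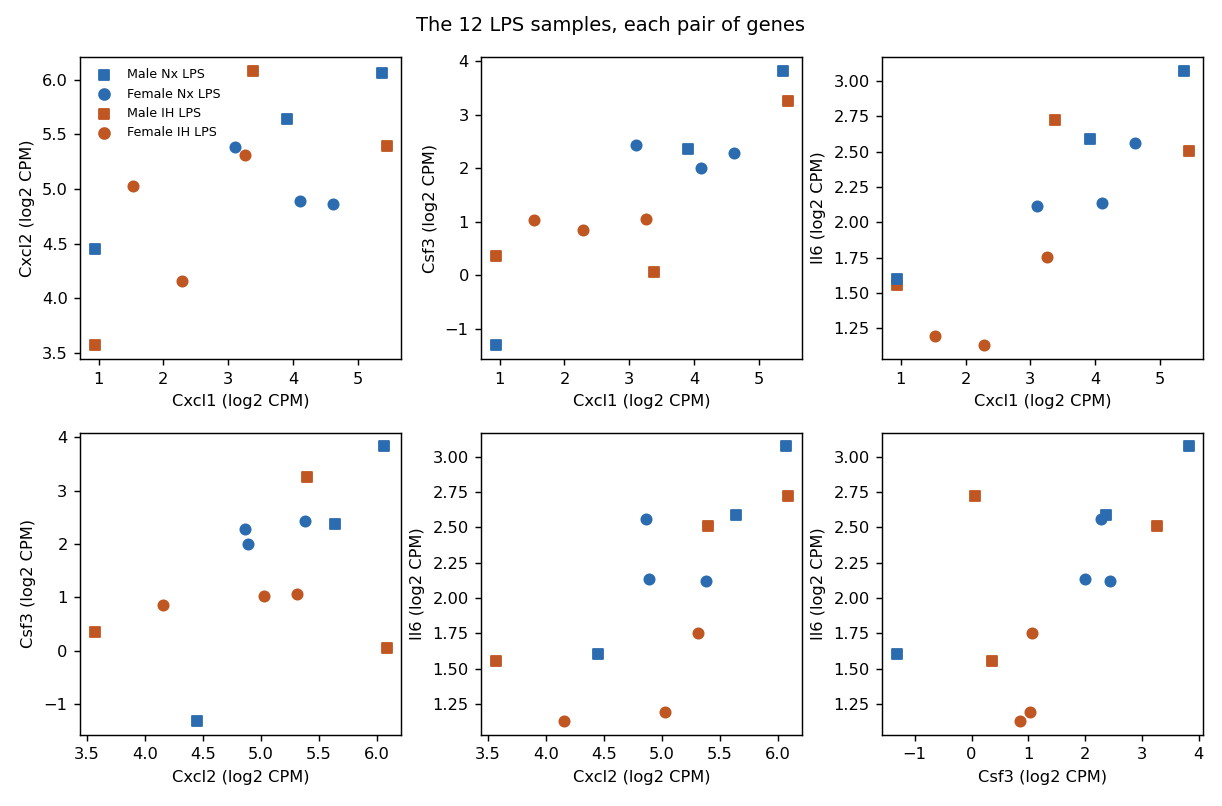
Log2 CPM of each pair of genes in the 12 LPS samples (squares, males; circles, females; blue, Nx; orange, IH). Cxcl1 rises with Csf3 (r = 0.844) and with Il6 (r = 0.822), and the male samples lie at both ends of most plots.

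The LPS samples were also ranked by the mean of their ranks over the 4 genes, as a description. The female mean ranks were 5.25, 5.75 and 6 after Nx and 7, 9 and 10.25 after IH. Of the 4 genes, 3 come from the study's list for this female comparison, and taken singly Csf3 and Il6 did not overlap in females, as for 5.28% of genes, while Cxcl1 and Cxcl2 did. The male mean ranks of both oxygen groups overlapped. Male Nx LPS replicate 1 was highest, with a mean rank of 1.5 of 12, followed by Male IH LPS replicate 2 at 3 and Male Nx LPS replicate 3 at 3.75. The lowest were Male IH LPS replicate 3 at 11, Male Nx LPS replicate 2 at 10.5 and Female IH LPS replicate 2 at 10.25. Of the low male samples, which also stood apart in the other targets, Male IH LPS replicate 3 had the highest total count of all 24 samples, 8548714, and Male Nx LPS replicate 2 had 7209119. Why these libraries were low was not tested.

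As a description of what else followed these genes over the 12 LPS samples, every other tested gene was ranked by its r with each of them, with a median r near 0. For Cxcl1, Ptgs2 had rank 1 (r = 0.956) and Sele rank 3 (r = 0.921), and the other 7 named targets ranked from 26 for Irf1 (r = 0.856) to 1395 for Cd83 (r = 0.568). For Csf3, Cxcl1 had rank 4 of 12859 (r = 0.844). Seen from Cxcl1, Csf3 ranked 40, Il6 62 and Cxcl2 568. The highest r was 0.934 for Cxcl2, 0.923 for Il6 and 0.866 for Csf3, each with a gene whose symbol is not paired here. The 12 points share the LPS injection and the 4 groups, and no p is given for these ranks.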

How the data were processed

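Per the labels and the study's methods, the authors aligned stranded mRNA reads with TopHat2 2.1 to rat build rn6 and counted uniquely aligned reads per gene and strand with HTSeq, and the deposited files hold raw counts for 32754 genes in each of 24 samples. HTSeq summary lines were left out of library sizes (no feature 14.7 to 21.2%, ambiguous 0.265 to 0.435% of reads). Genes with CPM above 1 in at least 3 samples were kept, scaled by TMM and tested with the edgeR 4.0.16 quasi-likelihood test in R 4.3.3, with Benjamini-Hochberg adjustment over all 12860 genes. LPS effects and their interaction with oxygen were fitted on all 24 samples, IH with vehicle on 12 and IH or sex with LPS on the other 12. Correlations used log2 CPM with a prior count of 2. Alternatives were DESeq2 1.42.0 and other edgeR tests, scaling, filter, priors, fits and left-out libraries. Samples of a group differed beyond counting noise (chi-square per degree of freedom at least 7.65 in 24 pairs).

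The genes, lists and tests were chosen with earlier results of these data known. Symbols of Cxcl1, Csf3, Il6 and the 9 NF-κB targets came from the study's identifier list, and that of Cxcl2 from the definition of the gene set. The RefSeq gene table (47357 genes, GRCr8) gave no Ensembl identifiers, so the 14 planned lists (109 genes), cell type markers included, could not be matched and are not analysed here, and the planned rule for naming genes was followed only for the named ones. Promoter coordinates are GRCr8 and are not set beside rn6. In data simulated for 12860 genes, 100 of the better-counted genes were changed at each of log2 1 and 2. Of these, 58 and 92% were recovered for LPS in Nx, and 31 and 86% for the interaction. For IH with LPS the shares were 64 and 91%, and in females 21 and 70%. They hold for the spread of the genes drawn. The SE of IH with LPS was 0.73 for Cxcl1 and Csf3, and 1.06 for Cxcl1 in females, so the shares cannot be taken over to these genes.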

Additional observations from a re-analysis of the deposited data

Results flagged for a closer look

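Over 14 groups of 6 samples (4 genes, oxygen and injection groups with sexes pooled, without those at 0), 4 had a sample set apart from its group by Dixon's criterion, where chance gives about 0.7 if values are normal. The criterion was applied to CPM. On log2 CPM, chosen after seeing the data, only 2 groups had such a sample, Csf3 in Male IH LPS replicate 2 and the low Csf3 value of Male Nx LPS replicate 2, so the number depends on the scale. The 4 on CPM are male samples. Csf3 stood at 9.31 CPM in Male IH LPS replicate 2, with the next sample of the IH LPS group at 1.82 CPM, and at 13.9 CPM in Male Nx LPS replicate 1, with the next of the Nx LPS group at 5.13 CPM. Cxcl1 stood at 43.2 CPM in the same Male IH LPS replicate 2, with the next at 10.2 CPM. Cxcl2 stood at 16.4 CPM in Male IH replicate 1, a vehicle sample, with the next at 3.38 CPM. In that vehicle library Csf3 had 0 reads, Cxcl1 5 and Il6 13. The causes were not tested.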

How the results depend on the processing

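The 4 LPS calls in Nx, and those of Cxcl1, Cxcl2 and Csf3 in IH, kept direction and threshold under every alternative run, though not their size (log2 4.75 to 7.48 for Cxcl1 and 3.02 to 4.23 for Cxcl2 in IH without single libraries). Il6 in IH lost its call with no filter (adjusted p = 0.0701), with the replicate block (0.0575), in a fit of the 12 IH samples (0.0532) and without the 2 vehicle libraries highest in Cxcl2 (0.112; edgeR), while its log2 change stayed between 1.018 and 1.025. Leaving out libraries one at a time gave 1437 to 2552 calls for LPS in Nx, 602 (without Male IH LPS replicate 1) to 1375 for LPS in IH, 0 to 2 for IH with vehicle, 0 to 1 for IH with LPS in males, and 3 to 6 correlated pairs. Leaving out pairs of libraries was added after seeing the data. Without the 2 LPS libraries lowest in Cxcl1 there were 1602 calls for LPS in IH and 3 correlated pairs, and without the 2 vehicle libraries highest in Cxcl2 there were 604. Females against males with LPS gave 85 calls by the likelihood ratio test, 68 by DESeq2 and 27 with the replicate block; IH with LPS gave 1 in females by the likelihood ratio test and 2 in males by the edgeR exact test, none of these a member.

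Several estimates changed sign, and not only small ones. The interaction turned to -0.0077 for Cxcl1 and 0.011 for Cxcl2 with the replicate block, and for Cxcl2 to 0.0059 without the low LPS libraries and 0.43 without the high vehicle libraries; the sex difference in the IH effect on Cxcl2 turned to -0.028 without the low LPS libraries. With single libraries left out, IH with LPS ran from -0.449 to 0.0529 for Cxcl2, and in males from -1.74 to 1.17 for Cxcl1, -2.82 to 0.57 for Csf3, -0.77 to 0.24 for Cxcl2 and -0.54 to 0.17 for Il6, and in females from -0.39 to 0.13 for Cxcl2. IH with vehicle ran from -1.04 to 0.31 for Cxcl2. The interaction ran from -0.74 to 1.99 for Cxcl1 and -0.49 to 0.87 for Cxcl2. The sex difference in the IH effect ran from -2.73 to 0.18 for Cxcl1, -0.37 to 0.64 for Cxcl2 and -1.93 to 1.47 for Csf3, and females against males from -1.10 to 0.22 for Csf3. The causes were not tested.

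Same-numbered samples were little more alike than others: their deviations had a mean r of 0.0503 (-0.570 to 0.487 over 84 pairs), against -0.0253 for samples with other numbers. In the LPS samples these were 0.0873 and -0.0446. Litters are not given, so a pairing may exist. The replicate block changed the call of Il6 in IH and of Csf3 with Il6 (r = 0.60, adjusted p = 0.0505). With 0 to 7 Cxcl1 reads and no Csf3 read in a vehicle sample, depth limits what can be said of IH there.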
